A study of Mus musculus with 8 samples.

Results

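The chaperones and disulfide isomerases of the endoplasmic reticulum (ER) described here are encoded by 10 genes, Hsp90b1, Hspa5, Calr, Canx, Pdia3, Pdia4, Pdia6, P4hb, Ppib and Sdf2l1, and were read among 19938 genes measured in hemophagocytes and resting macrophages of the mouse spleen. The genes were chosen by symbol, and the probe set of each was selected on its mean over the 8 arrays, the brightest being kept, which decided between probe sets for Pdia4 alone. No difference between the groups entered that rule. Hsp90b1, and to a lesser degree Pdia3, were singled out because an earlier reading of these arrays had shown the first to be high on 1 hemophagocyte array and the second among genes of class I loading, so their differences between the groups are descriptions and their p-values are not independent evidence.

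Hemophagocytes are macrophages that have engulfed blood cells. Both groups were wild type male C57Bl/6j mice aged 8 weeks, dosed intraperitoneally on alternate days for 4 doses. Hemophagocytes (4 arrays, replicates 2, 3, 5 and 6) came from mice given 37.5 ug of CpG1826, an oligonucleotide that activates Toll-like receptor 9, with 200 ug of the IL-10 receptor blocking antibody 1B1.3A, and resting macrophages (4 arrays, replicates 3, 4, 5 and 6) came from mice given 200 uL of PBS. From each mouse 20 target cells were laser-captured from spleen touch preparations, pooled, amplified and hybridised to Affymetrix mouse Gene ST 1.0 arrays. Treated macrophages without engulfed cells were not analysed here, so engulfment and treatment cannot be told apart. The labels do not say how many mice stand behind an array, and p-values measure the spread between these arrays, which may be partly technical.

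The ER is where secreted and membrane proteins fold. Chaperones hold unfolded chains there, lectin chaperones read the sugar attached to new glycoproteins, and protein disulfide isomerases make and reshuffle disulfide bonds. When unfolded proteins accumulate, the unfolded protein response raises ER chaperones together. It does so in part through the transcription factor ATF6, which with NF-Y binds the ER stress response element (ERSE) in some of their promoters. In macrophages this machinery also folds Toll-like receptors and integrins, which are clients of the Hsp90b1 protein, and loads peptides on MHC class I molecules, where the proteins of Calr and Pdia3 take part.

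The ERSE is a promoter element that ATF6 and NF-Y use to raise some ER chaperone genes. Its textbook form is CCAAT and CCACG with 9 bases between them. This form was searched on both strands from 250 bases before to 50 after the start site. The form was taken from general knowledge and not from the deposited files. RefSeq promoter sequences (GRCm38.p6) matched all 10 genes by symbol. Of them 5 held the motif, in 5 of 10 windows, against 39 of 32851 windows (0.119%) of all genes in that table. The shorter ERSE-II, searched as ATTGG and CCACG with 1 base between them, was in 0 of the 10 windows and in 0.0365% of all. The element is known from promoters of ER chaperones, so its share among these 10 genes is no independent evidence and carries no test. A match is a description of the letters and does not show binding. The matching stretches are shown because they set the gene with the widest spread beside the other 4 that carry the same element; each is written 5′ to 3′ on the gene's strand, with 10 bases on each side and the fixed letters of the motif (either strand) in capitals.
Hsp90b1, chr10:86705523-86705666, minus strand: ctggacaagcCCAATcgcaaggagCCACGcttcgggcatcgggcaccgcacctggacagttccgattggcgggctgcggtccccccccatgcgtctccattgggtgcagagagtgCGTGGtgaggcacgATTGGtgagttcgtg
Hspa5, chr2:34772015-34772053, plus strand: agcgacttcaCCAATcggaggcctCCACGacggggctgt
Calr, chr8:84847065-84847103, minus strand: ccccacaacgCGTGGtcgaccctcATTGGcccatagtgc
Canx, chr11:50325790-50325828, minus strand: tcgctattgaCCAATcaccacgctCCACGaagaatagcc
Pdia6, chr12:17266481-17266519, plus strand: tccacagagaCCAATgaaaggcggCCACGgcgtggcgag

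Values are deposited log2 array values, which set no gene's level against another's. The arrays' medians lay between 6.10 and 6.17. As a gauge of background, 1194 genes of olfactory and vomeronasal receptors, which belong to sensory neurons, averaged 5.75 to 6.16 on the arrays, with a 95th percentile of 7.42 to 7.81. Hemophagocytes 3 and 5 stood apart from the other arrays: 154 genes (0.772%) and 159 genes (0.797%) lay more than 1 log2 unit above their own median over the 8 arrays there, against 7 to 30 on each other array. Of 19 macrophage markers measured, 0 to 3 exceeded the receptor genes' 95th percentile on the resting arrays (C1qb, Timd4 and Lyz2 on at least 1 of them), 5 and 6 did on hemophagocytes 3 and 5, and 1 and 0 did on hemophagocytes 2 and 6. The defining macrophage genes Adgre1, Cd68 and Csf1r did not exceed it on any resting array. Across genes the hemophagocyte arrays correlated with each other at 0.940 to 0.965. Hemophagocyte 2 correlated with resting array 3 at 0.974, and hemophagocyte 6 with resting array 6 at 0.971.

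Hsp90b1 and Pdia3 were more than 1 log2 unit above their medians on hemophagocytes 3 and 5 and on no other array, and none of the other 8 chaperones was so on any array. No chaperone differed between the groups past the threshold. With limma and Benjamini-Hochberg adjustment over all genes, 0 of the 10 passed at an adjusted p of 0.05, where 2 of all 19938 genes (0.01%) did. At an unadjusted p under 0.05, 0 of the 10 were higher in hemophagocytes, against 1.53% of all genes, and 2 were lower, Ppib and Pdia4, against 5.05% of all genes. The groups overlapped in all 10; over all genes 0.802% had every hemophagocyte array above every resting array and 2.9% had every one below. The median change over the 10, hemophagocyte minus resting, was 0.052 on the log2 scale and the median over all genes was -0.037. Hemophagocytes 3 and 5 were the 2 highest arrays for 4 chaperones, Hsp90b1, Pdia3, Hspa5 and P4hb, as for 2.01% of all genes. After quantile normalization the count was 4 as well, with 2.82% of all genes, and median centring or cyclic loess added Calr to these 4, with 3.14% and 4.08% of all genes. This count and its scalings were chosen after the values were seen and carry no test. Over the highest resting array the margins were 1.26 to 3.96 log2 units for Hsp90b1 and Pdia3 and 0.0095 to 0.19 for Hspa5 and P4hb. Of the 10 changes, 7 were above 0, as were 36.1% of changes over all genes.

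**Figure D1:**
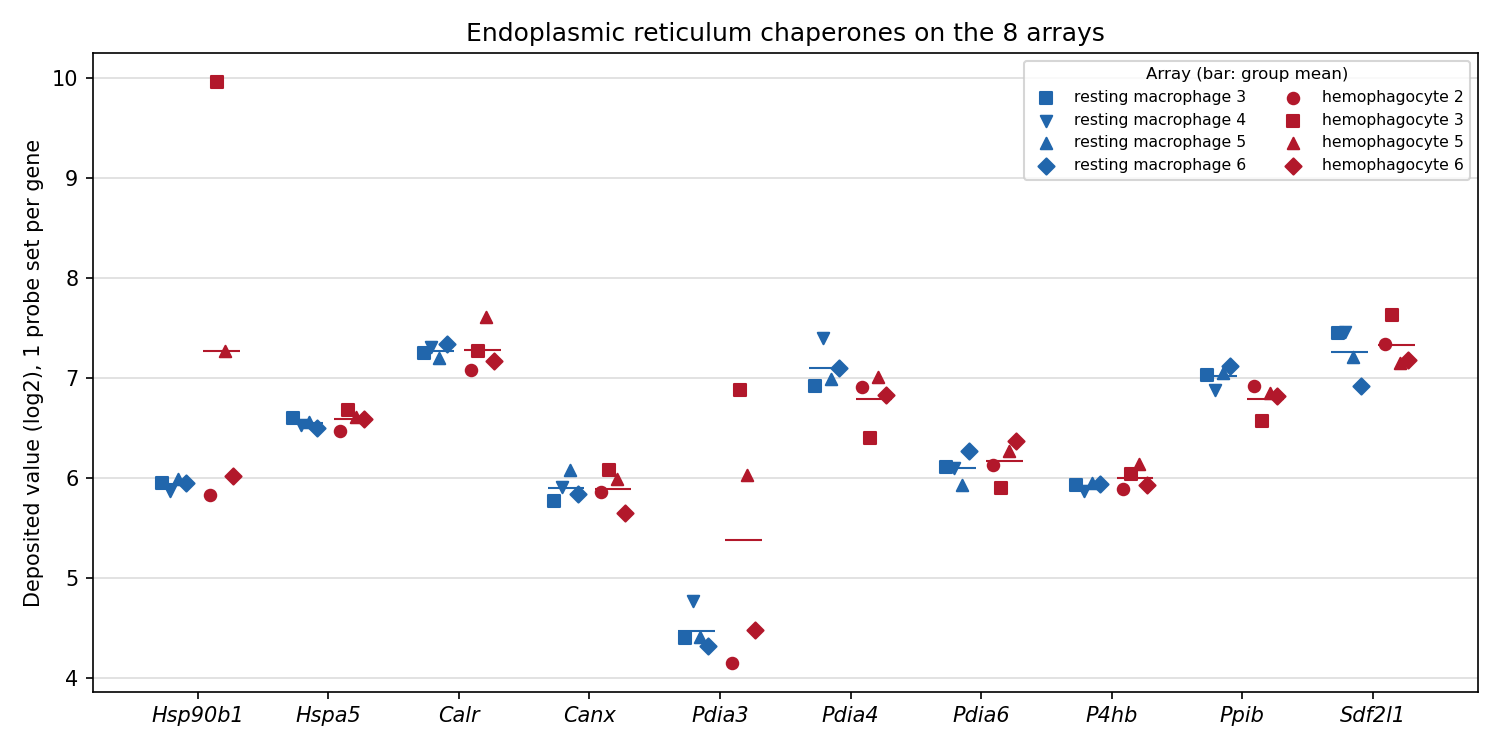
Deposited log2 value of each of the 10 chaperone genes (x axis) on every array (y axis), with 4 resting macrophage arrays in blue, 4 hemophagocyte arrays in red, a symbol for each replicate number and a bar at each group mean. Hsp90b1 stands at 9.96 on hemophagocyte 3 and 7.27 on hemophagocyte 5 and between 5.84 and 6.02 on the other 6 arrays.

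Hsp90b1 encodes the ER member of the Hsp90 family, also called GRP94 or gp96, which folds Toll-like receptors and integrins. Its log2 value was 9.96 on hemophagocyte 3, 7.27 on hemophagocyte 5, 6.02 on hemophagocyte 6 and 5.84 on hemophagocyte 2. On the resting arrays it was 5.96, 5.87, 6.00 and 5.95 for replicates 3, 4, 5 and 6. Hemophagocyte 3 was thus 4.02 and hemophagocyte 5 was 1.32 log2 units above the resting mean, hemophagocyte 6 was just above the highest resting array, and hemophagocyte 2 lay below all 4 resting arrays. Because hemophagocyte 3 alone exceeded the receptor genes' 95th percentile of its own array, these are differences between array values and no exact fold of RNA is given. The group means were 7.27 ± 1.90 in hemophagocytes and 5.94 ± 0.05 in resting macrophages (SD, n = 4 each), and the change of 1.33 (SE 0.71, limma adjusted p = 0.75) was smaller than the spread among the hemophagocyte arrays. The change was 0.43 without hemophagocyte 3 and -0.014 without hemophagocytes 3 and 5. With all 8 arrays and each array's mean over the receptor genes as a covariate it was 0.10 (limma adjusted p = 0.998). That mean was lowest on hemophagocyte 3, at 5.75, against 5.95 to 6.16 on the other arrays. The covariate therefore largely sets that array apart, and this fit cannot tell background from whatever else differs on it. The range over the hemophagocyte arrays was 4.12 log2 units, against 0.12 over the resting arrays, and 19 of the 19938 genes (0.0953%) had a hemophagocyte range at least as wide, Hsp90b1 included.

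Pdia3, also called ERp57, is the disulfide isomerase that works with the lectin chaperones on glycoproteins and sits in the class I peptide-loading complex. It stood at 6.88 on hemophagocyte 3, 6.03 on hemophagocyte 5, 4.48 on hemophagocyte 6 and 4.16 on hemophagocyte 2, and at 4.40, 4.78, 4.41 and 4.32 on resting arrays 3, 4, 5 and 6. The first 2 of these arrays were above all resting arrays, by 2.40 and 1.55 log2 units over the resting mean, hemophagocyte 6 was inside the resting range, and hemophagocyte 2 was below it. None of its 8 values exceeded the receptor genes' 95th percentile, so no fold is given here either. The means were 5.39 ± 1.29 and 4.48 ± 0.20 (SD, n = 4 each), with a change of 0.91 (SE 0.49, limma adjusted p = 0.75) that was 0.41 without hemophagocyte 3 and -0.16 without hemophagocytes 3 and 5. With the receptor genes' array mean as a covariate and all 8 arrays kept it was 0.35 (limma adjusted p = 0.993), under the same limit as for Hsp90b1. Its hemophagocyte range of 2.73 log2 units was reached or passed by 81 genes (0.406%), itself included. Hsp90b1 and Pdia3 were the 2 of the 10 chaperones that lay more than 1 log2 unit above their own median on both hemophagocytes 3 and 5, where 55 genes in all (0.276%) did. This comparison of arrays was chosen after their values had been seen and carries no test.

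**Figure D2:**
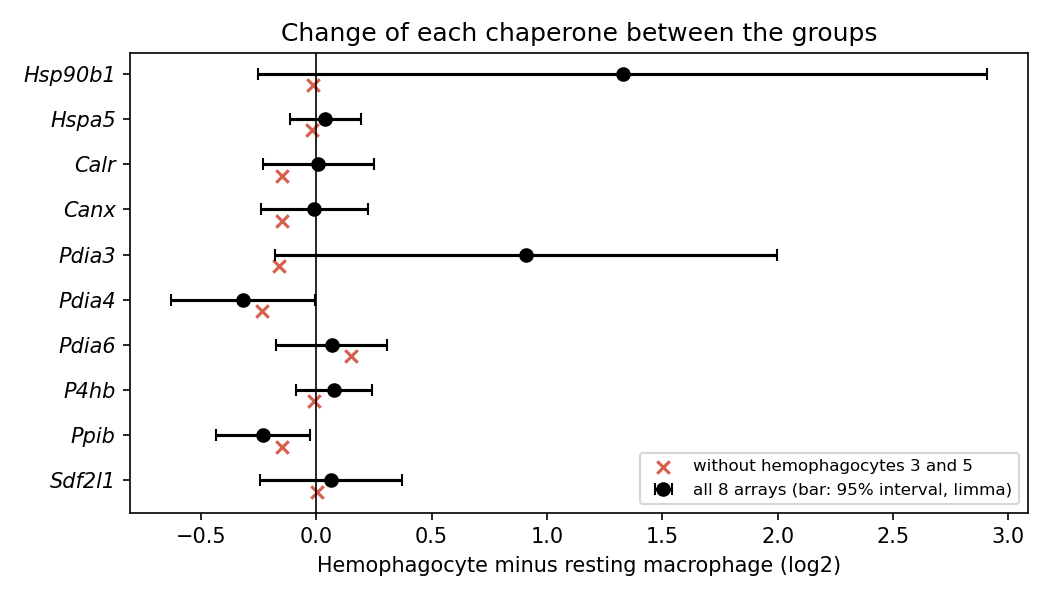
Change of each chaperone between the groups on the log2 scale (x axis; black points, all 8 arrays, bars the limma 95% interval) and the same change without hemophagocytes 3 and 5 (crosses). Hsp90b1 at 1.33 and Pdia3 at 0.91 have the widest intervals, and both stand at or below 0 in the crosses.

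Hspa5, also called BiP or GRP78, is the ER Hsp70 whose level is the usual readout of the unfolded protein response. Its value was 6.68, 6.61, 6.59 and 6.47 on hemophagocytes 3, 5, 6 and 2, and 6.61, 6.53, 6.56 and 6.50 on resting arrays 3, 4, 5 and 6. Hemophagocytes 3 and 5 were the 2 highest arrays here too, by 0.077 and 0.0095 log2 units over the highest resting array. The change was 0.040, and its 95% interval ran from -0.12 to 0.19 on the log2 scale. All 8 values lay below the receptor genes' 95th percentile, so the interval describes the array value and sets no limit on a change in the transcript. Sdf2l1, an ER resident of the BiP complex that is induced in the unfolded protein response, had its highest value, 7.63, on hemophagocyte 3. The other hemophagocytes ranged from 7.15 to 7.35 and the resting arrays from 6.92 to 7.47, and the change was 0.064 (95% interval -0.24 to 0.37). With Hsp90b1 it was 1 of the 2 chaperones above the receptor genes' 95th percentile on any array, in both cases on hemophagocyte 3, where that percentile was 7.42. All 10 lay below it on the resting arrays, so whether their transcripts were detected there cannot be told.

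The lectin chaperones Calr and Canx, which hold glycoproteins by their sugar and recruit Pdia3, had changes near 0. Calr, the soluble calcium-binding one, was highest on hemophagocyte 5 at 7.62. The remaining hemophagocytes ranged from 7.09 to 7.28 and the resting arrays from 7.20 to 7.34, with a change of 0.0097 (95% interval -0.23 to 0.25). Canx, the membrane-bound one, ranged from 5.66 to 6.08 in hemophagocytes and from 5.77 to 6.09 in resting macrophages, with a change of -0.0081 (95% interval -0.24 to 0.22) whose sign differed between scalings (0.019 after quantile normalization). Neither partner of Pdia3 in glycoprotein folding was more than 1 log2 unit above its own median on any array. Both lay below the receptor genes' 95th percentile on every array, so their values set no limit on changes in the transcripts.

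Among the other disulfide isomerases, P4hb, which is also a subunit of prolyl 4-hydroxylase, had hemophagocyte values of 5.89 to 6.14 against resting values of 5.87 to 5.95, a change of 0.079 (95% interval -0.086 to 0.24). Its 2 highest arrays were again hemophagocytes 5 (6.14) and 3 (6.04). Pdia6, which acts on the stress sensor IRE1 besides its folding role, ranged from 5.91 to 6.37 in hemophagocytes and 5.93 to 6.27 in resting macrophages (change 0.067), and hemophagocyte 3 was its lowest array. P4hb and Pdia6 lay below the receptor genes' 95th percentile on every array, so their values too set no limit on changes in the transcripts.

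Pdia4, also called ERp72, and Ppib, cyclophilin B, a proline isomerase of the ER that serves collagen and other secreted proteins, had lower values in hemophagocytes that did not pass. Pdia4 stood at 6.40, 6.83, 6.91 and 7.02 on hemophagocytes 3, 6, 2 and 5, and at 6.93, 7.40, 6.99 and 7.11 on resting arrays 3, 4, 5 and 6. In 3 of 4 hemophagocytes it lay below all resting arrays. The change was -0.32 (SE 0.14; limma unadjusted p = 0.0475, adjusted p = 0.75), and -0.19 without hemophagocyte 3. The other probe set of Pdia4, which the platform annotation ties to the curated transcript where the brighter 1 is tied to a predicted model only, had means of 5.83 ± 0.20 and 5.82 ± 0.06 and a change of 0.0090, so the 2 probe sets disagreed. Ppib was 6.57, 6.83, 6.85 and 6.93 on hemophagocytes 3, 6, 5 and 2, and 7.04, 6.88, 7.06 and 7.13 on resting arrays 3, 4, 5 and 6. Here too 3 hemophagocytes lay below all resting arrays, with hemophagocyte 3 lowest, and the change was -0.23 (SE 0.09; limma unadjusted p = 0.030, adjusted p = 0.75). The mean over the olfactory and vomeronasal receptor genes was likewise lowest on hemophagocyte 3, at 5.75. Its part in these values was not tested. With that array mean as a covariate the change was -0.073 for Pdia4 and -0.13 for Ppib, under the same limit as for Hsp90b1. Such a fit cannot tell background from whatever else differs on hemophagocyte 3.

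The spread over hemophagocytes was wider than over resting macrophages in 9 of the 10 chaperones, all but Sdf2l1, as it was in 60.0% of all genes. Hemophagocyte 3 was the highest of the 8 arrays for 4 chaperones and the lowest for 3, and hemophagocyte 2 was the lowest for 4. For 7 of the 10, all but Hsp90b1, Pdia3 and Pdia4, the 95% interval of the change lay within 0.5 log2 units of 0. Of these 7, Sdf2l1 alone exceeded the receptor genes' 95th percentile, and only on hemophagocyte 3. The intervals therefore describe array values and set no limit on changes in the transcripts.

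Hsp90b1 held 2 matches, 1 in each orientation, starting 212 and 107 bases before the start site, and Hspa5, Calr, Canx and Pdia6 held 1 each, starting 65, 162, 145 and 98 bases before it. The windows of Pdia3, Pdia4, P4hb, Ppib and Sdf2l1 held none, which says only that these letters are not in those windows. The 5 genes with a match had changes from -0.0081 to 1.33 with a median of 0.040. Of these 5, Hsp90b1 alone lay more than 1 log2 unit above its own median on hemophagocyte 3. Pdia3, which shared its high arrays, held no match. Apart from Hsp90b1 on hemophagocyte 3, the 5 lay below the receptor genes' 95th percentile on every array. Their values set no limit on changes in the transcripts, and the part of the element was not tested. Another 32 genes have the motif in at least 1 window; 16 were measured, their changes ran from -0.27 to 0.075 with a median of -0.044, and 0 passed with limma (0 at an unadjusted p under 0.05). They include the ER degradation genes Derl3 (-0.10) and Syvn1 (-0.052) and the stress-induced ER protein Creld2 (0.060), named for their role. The lowest change, -0.27, was that of Olfr59, itself an olfactory receptor gene. At most 2 of the 16 exceeded the receptor genes' 95th percentile on any array, so these values set no limit on changes in the transcripts.

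**Figure D3:**
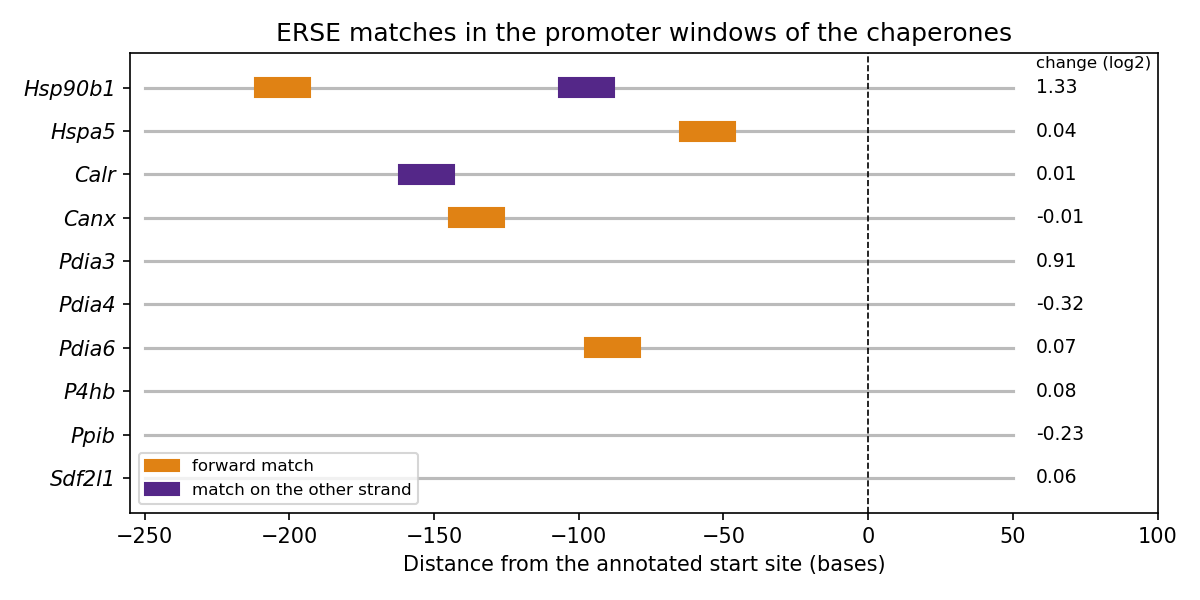
Position of the ERSE matches (boxes; orange forward, purple other strand) in the promoter window of each chaperone, by distance in bases from the annotated start site (x axis), with the change between the groups in log2 units at the right. Hsp90b1, with 2 matches and a change of 1.33, stands beside Hspa5, Calr, Canx and Pdia6, with 1 match each and changes of -0.0081 to 0.067. Apart from Hsp90b1 on hemophagocyte 3, these 5 genes lay below the receptor genes' 95th percentile, so their changes set no limit on the transcripts.

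The remaining genes of ER folding did not pass, whether chaperones or stress sensors. Of 36 other ER chaperones, cochaperones and oxidoreductases measured (of 37 listed), limma called 0, and the median change was -0.031. An unadjusted p under 0.05 was reached by 2 lower genes and 0 higher, where 5.05% of all genes were lower and 1.53% higher. These shares over all genes also stand beside the counts of the related lists that follow. Sil1, the nucleotide exchange factor of BiP, had the smallest p. It stood at 7.06 to 7.13 on the hemophagocyte arrays and 7.23 to 7.36 on the resting arrays, which did not overlap (change -0.21, SE 0.06, limma adjusted p = 0.75). Every hemophagocyte array lay below every resting array for 1 of the 36 genes and for 2.9% of all genes. Cnpy2 was at -0.18, the testis calnexin homologue Clgn at -0.15 and the proline isomerase Fkbp7 at -0.15. Hyou1, the large Hsp70-like partner of BiP, ranged from 6.09 to 6.32 over the 8 arrays, and Manf, a secreted ER stress protein, from 6.93 to 7.22. Both were named for their role. Of the 36, 0 exceeded the receptor genes' 95th percentile on any array, so these values set no limit on changes in the transcripts.

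Among 18 measured sensors and transcription factors of the unfolded protein response (of 20 listed), limma called 0, the unadjusted p was under 0.05 for 1 gene, which was higher, and the median change was 0.0029. The higher 1 was Ppp1r15a, also called GADD34, which restores translation after stress, at 5.99 to 6.22 in hemophagocytes and 5.79 to 6.01 in resting macrophages (change 0.18, limma adjusted p = 0.75). Creb3 was at -0.18, the p53 and stress target Bbc3 at -0.20 and the ER membrane protein Wfs1 at 0.20. Xbp1, the target of IRE1, stood at 6.23 to 6.46 in hemophagocytes and 6.15 to 6.29 in resting macrophages. Ddit3, the stress factor CHOP, stood at 6.73 to 7.06 and 6.62 to 6.81, and Atf4 at 5.97 to 6.20 and 5.91 to 6.24. These 3 were named for their role. The array's probe sets do not separate spliced Xbp1 from the unspliced form in these values. Of 24 measured ER degradation genes (of 25 listed) 0 were called and 0 had an unadjusted p under 0.05, with Ube2j1 (-0.15), Marchf6 (-0.086), Edem1 (0.076) and Selenos (0.11) at the smallest p and Herpud1, named for its role, between 6.02 and 6.24 on all arrays. The receptor genes' 95th percentile was exceeded by 1 of the 18 sensors and factors on hemophagocyte 2 and by 0 on every other array. Of the 24 degradation genes 0 exceeded it on any array, so these values too set no limit on changes in the transcripts.

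Proteins enter, are glycosylated in and leave the ER through machinery that also stayed short of the threshold. In the translocon, signal recognition particle and signal peptidase list (22 of 24 measured) 0 were called and 0 had an unadjusted p under 0.05, the median change was 0.026, and Srp14 (0.28), Srp72 (0.17), Srpr (0.37) and Sec61a1 (-0.15) had the smallest p. Single arrays moved these: Srp14 was 0.11 without hemophagocyte 3, Srpr 0.18 without resting array 3, and Srp72 0.096 and Sec61a1 -0.088 without resting array 5. Sec11c, a catalytic subunit of signal peptidase, was chosen after its values were seen: it stood at 7.53 on hemophagocyte 5 and 4.82 to 5.70 elsewhere, so it shared that array with Hsp90b1 and Pdia3. In oligosaccharyltransferase and glycan trimming (21 of 21 measured) 0 were called and 0 had an unadjusted p under 0.05, with a median of -0.020 and Ostc (0.20), Ost4 (0.18), Dad1 (-0.12) and Uggt1 (-0.11) at the smallest p. In retrieval and ER to Golgi transport (25 of 26 measured) limma called 0, the unadjusted p was under 0.05 for 1 higher and 1 lower gene, and the median was 0.0090. Kdelr1, a receptor that returns escaped ER chaperones, was the higher 1, at 5.71, 5.65, 5.80 and 5.41 on hemophagocytes 2, 3, 5 and 6 and 5.45, 5.35, 4.85 and 5.29 on resting arrays 3 to 6 (change 0.41, SE 0.13, limma adjusted p = 0.75). Lman1, a cargo lectin, was the lower 1 (-0.31), and Mcfd2 (-0.21), its partner, and Sec13 (-0.15) followed. On any array at most 1 gene of the translocon list and 1 of the transport list exceeded the receptor genes' 95th percentile. Of the 21 glycosylation genes 0 did, so little change in these values sets no limit on changes in the transcripts.

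**Figure D4:**
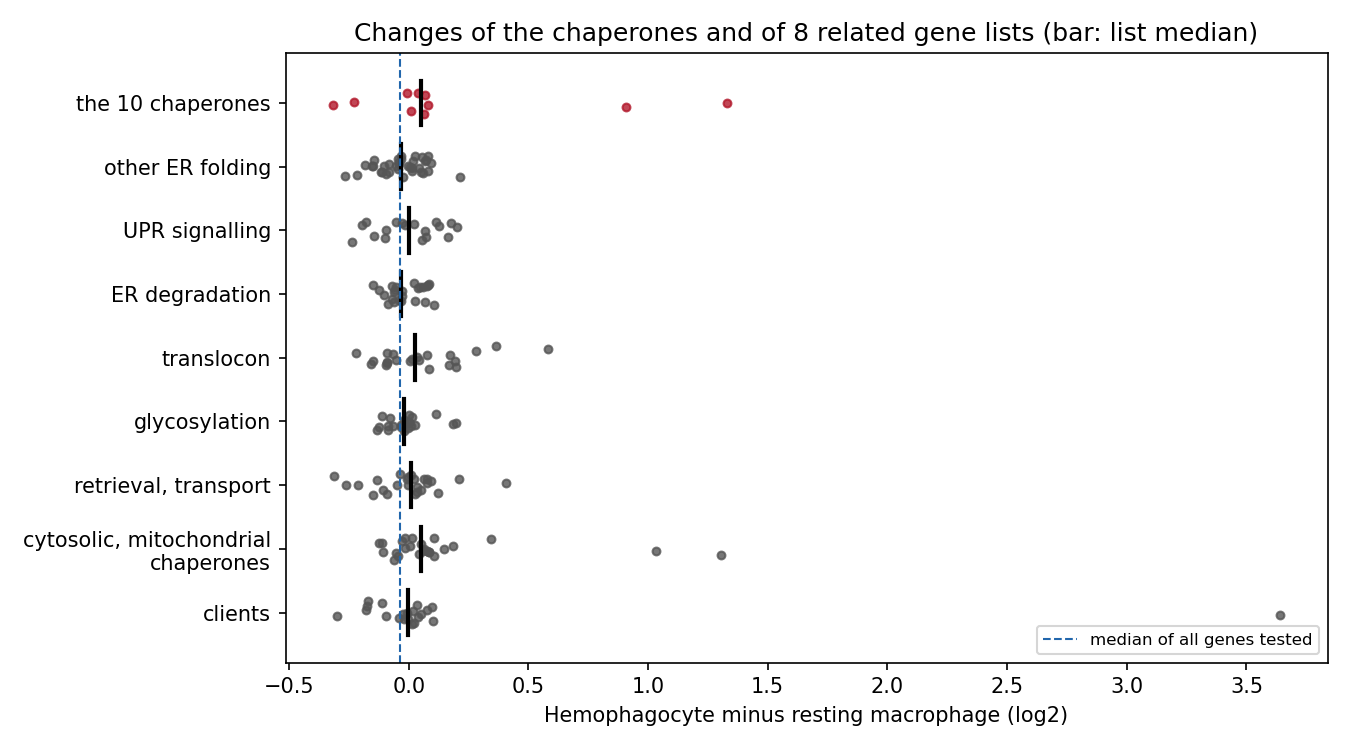
Change of every measured gene (points) of the 10 chaperones and of 8 related gene lists, on the log2 scale (x axis), with a bar at each list's median and a dashed line at the median of all genes tested, -0.037. The list medians lie between -0.031 and 0.052, and B2m, among the clients, has the widest change at 3.64.

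Among cytosolic and mitochondrial chaperones, Hspa8 alone lay more than 1 log2 unit above its own median on both hemophagocytes 3 and 5, as 0.276% of all genes did. Of 25 measured (of 27 listed), limma called 0, the unadjusted p was under 0.05 for 1 gene, which was higher, and the median change was 0.051. Hspa8, the constitutive cytosolic Hsp70, was the higher 1. It stood at 11.20, 10.42, 9.50 and 9.29 on hemophagocytes 3, 5, 2 and 6, and at 8.55, 8.76, 9.39 and 8.46 on resting arrays 3, 4, 5 and 6, so that 3 hemophagocytes lay above all resting arrays (change 1.31, SE 0.37, limma unadjusted p = 0.0049, adjusted p = 0.75). Hspd1, the mitochondrial Hsp60, reached 8.52 on hemophagocyte 3 and stayed at 3.97 to 4.54 elsewhere (change 1.03, or -0.023 without hemophagocyte 3). Its cochaperonin Hspe1, chosen after its values were seen, was at 7.07 on hemophagocyte 5, 7.14 on resting array 3 and 4.58 to 5.71 elsewhere, and so did not follow Hspd1. Cdc37 (0.19) and Ppia (0.15), the cytosolic counterpart of Ppib, were named by p.

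Among 21 clients of Hsp90b1 and genes of the class I loading complex, all measured, limma called 0, an unadjusted p under 0.05 was reached by 1 higher and 1 lower gene, and the median change was -0.0033. B2m, the light chain that joins class I heavy chains in the loading complex, was the higher 1. On hemophagocytes 5, 3, 6 and 2 its values were 10.34, 10.25, 9.67 and 5.17, and the resting arrays ranged from 4.60 to 6.08. B2m was therefore high on hemophagocyte 6 as well, where Pdia3 and Hsp90b1 were not. The tapasin gene Tapbp ranged from 6.66 to 6.93 and the peptide transporter Tap1 from 6.92 to 7.15 over the 8 arrays, neither of which set hemophagocytes 3 and 5 apart. Among the clients, Tlr9, the receptor for CpG DNA, was at 6.85 to 7.42 in hemophagocytes and 7.12 to 7.42 in resting macrophages (change -0.17), the integrin Itgav was the lower 1 at -0.30, and Itgal and Itgax were at -0.18. Cnpy3, a cochaperone of Hsp90b1 for Toll-like receptors, had a change of 0.052 and Unc93b1, which escorts them, of -0.039. Tapbp, Tap1, Tlr9, Cnpy3 and Unc93b1 were named for their role. Of the 21 genes, B2m alone exceeded the receptor genes' 95th percentile, on hemophagocytes 3, 5 and 6, and 0 did on the other arrays.

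The genes nearest to Hsp90b1 across the 8 arrays came from mitochondria, the cytoskeleton and a secreted alarmin rather than from the ER. Likeness was the root mean square difference between profiles, each centred on its own mean, over 17835 genes ranked. Predicted genes, pseudogenes, microRNAs and olfactory or vomeronasal receptors were passed over in this ranking. The nearest were Micos10 (0.24), a subunit of the cristae-organising complex, S100a8 (0.33), a calcium-binding alarmin abundant in neutrophils, Cox17 (0.33), a copper chaperone of cytochrome oxidase, Pfn1 (0.36), the actin-binding profilin, and Ndufa4 (0.41), a cytochrome oxidase subunit. On hemophagocytes 3 and 5 Micos10 stood at 10.42 and 8.59, against 6.73 to 6.91 elsewhere, and Cox17 at 8.80 and 7.27, against 5.20 to 5.54. Pfn1 (9.02) and Ndufa4 (9.84) were high on hemophagocyte 3 alone. Of the other 9 chaperones, Pdia3 ranked 21 by this measure, Sdf2l1 670, Canx 943, P4hb 1549, Hspa5 1647, Calr 2397, Pdia6 14096, Ppib 17117 and Pdia4 17737. The measure is weighted towards hemophagocyte 3, where Hsp90b1 lies farthest from its mean.

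**Figure D5:**
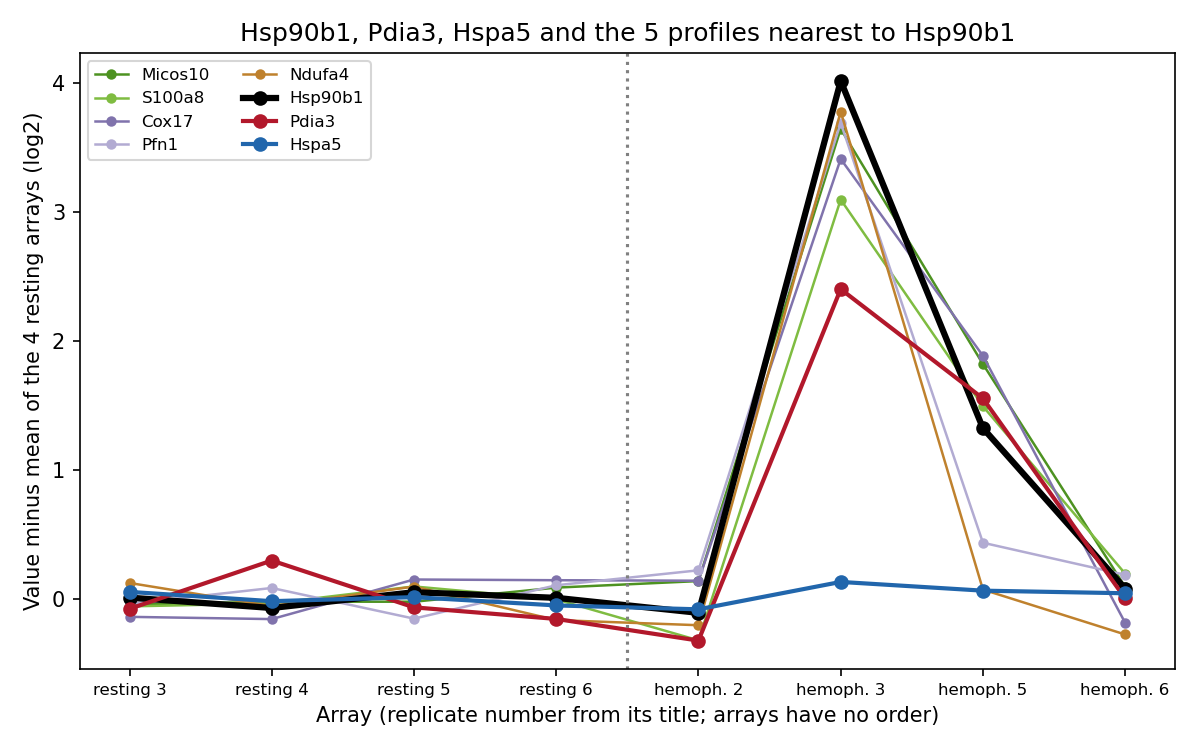
Value of Hsp90b1 (black), Pdia3 (red), Hspa5 (blue) and the 5 genes with the profile nearest to Hsp90b1, each minus its own resting mean in log2 units (y axis), on the 8 arrays (x axis; lines join the values of a gene and arrays have no order). Hsp90b1 peaks at 4.02 on hemophagocyte 3 and stands at 1.32 on hemophagocyte 5, while Hspa5 stays near 0 on all arrays.

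Cell type markers were read on the arrays where Hsp90b1 and Pdia3 were high. Plasma cells hold much ER chaperone RNA, and none of their 14 markers lay more than 1 log2 unit above its own median on any array. Their summed linear level was 1103 to 1293 in hemophagocytes and 1208 to 1236 in resting macrophages, 1227 on hemophagocyte 3 and 1121 on hemophagocyte 5, and Jchain (5.78 and 5.45) and Mzb1 (7.09 and 7.01) on those 2 arrays were set beside resting ranges of 5.43 to 5.55 and 7.04 to 7.11. Of the 14 plasma cell markers 0 exceeded the receptor genes' 95th percentile on any array, so whether plasma cell RNA was present cannot be told from them. Macrophage markers were also high: 3 of 19 on hemophagocyte 3 (Cd68, C1qc and Lyz2) and 5 of 19 on hemophagocyte 5 (these 3 with Adgre1 and C1qa) lay more than 1 log2 unit above their median and 0 on each other array, and the summed level was 3683 and 5462 there, against 1998 to 2468 on the resting arrays and 1842 on the lowest hemophagocyte array. The 2 arrays were in the opposite order for these markers, with Cd68 at 9.66 on hemophagocyte 3 and 10.52 on hemophagocyte 5. On hemophagocytes 2 and 6 Lyz2 stood at 5.86 and 6.55, below its resting range of 7.45 to 8.89. Of 13 neutrophil markers, S100a8 and S100a9 were up by that measure on hemophagocyte 3, S100a8 on hemophagocyte 5 and S100a9 on hemophagocyte 6, while Ly6g stood at 5.25 and 5.87 on hemophagocytes 3 and 5 against a resting mean of 5.73; the summed level was 1144 to 1700 in hemophagocytes and 1104 to 1137 in resting macrophages. Of 7 platelet markers, Pf4 alone was up, on the same 2 arrays at 10.35 and 9.11, with a summed level of 767 to 2046 in hemophagocytes and 833 to 911 in resting macrophages. B cell (11), T cell (11), NK cell (9), red cell (11) and dendritic cell (10) markers had 0 genes up by more than 1 log2 unit on any array. On any array 0 B cell or NK cell markers exceeded the receptor genes' 95th percentile. At most 1 marker each of T, red or dendritic cells did, so absence of these cells cannot be read from them. The part of these cells or of RNA yield in the Hsp90b1 and Pdia3 values was not tested, and with pooled cells a different share of cells and a different amount of RNA per cell cannot be told apart.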

How the data were processed

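Each array has 1 deposited value per probe set, judged from the range of the values to be on a log2 scale; per the submitters' processing notes Affymetrix Expression Console 1.1 was used. How the background was corrected, probes were summarised, and arrays were centred and normalized is not stated in the sources used here, and no further scaling was applied. Of 35556 probe sets, 21789 had 1 gene symbol in the platform annotation, 1621 several and 12146 were unlisted; the first kind gave 19938 genes, represented by their brightest probe set. Groups and replicate numbers came from the sample titles. All genes were fitted with limma 3.58.1 in R 4.3.3 (lmFit, eBayes, no block, Benjamini-Hochberg over all genes, threshold 0.05), and changes are hemophagocyte minus resting macrophage. The number of arrays, 4 per group, limits the precision.

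The chaperones, the 8 related lists, the 9 marker lists and the tests were chosen with earlier results of these data known, and the search for ERSE was added later, with half-sites taken from textbook knowledge and not from the deposited files. Named are all 10 chaperones, the 4 genes of smallest p in each related list, the 5 profiles nearest to Hsp90b1 and the first markers listed; others are marked in the text. Same-numbered arrays of the 2 groups had deviations from their group means that correlated across genes at 0.17, 0.066 and 0.12 for replicates 3, 5 and 6, so the numbers were not taken to pair the arrays. On simulated data of 19938 genes (20 draws), limma recovered 95.0% of the genes moved by 1 log2 unit and 99.1% of those moved by 2, with 11.05 false calls a draw on average. In each draw 200 genes were moved, and the noise was normal with the same spread in both groups. Each gene kept its own spread there, so these shares are for genes of typical spread and not for genes as variable as Hsp90b1. With 200 moved genes the adjustment passes a larger p than here, where 2 of 19938 genes passed. Hspa8, with a change of 1.31 and a limma unadjusted p of 0.0049, had an adjusted p of 0.75 here. The shares do not give the chance that a chaperone change would be called in these data. The alternatives tried were other scalings, filters, priors, weights, probe sets, array sets, a replicate block and a background covariate. Promoters are from RefSeq, GRCm38.p6; the genome build behind the array is not stated in the sources used here.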

Additional observations from a re-analysis of the deposited data

Results flagged for a closer look

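Among the 47 named genes, 94 groups of 4 arrays were checked for a value far from the other 3, and 6 had 1. The rule marks about 1 in 20 groups of independent, normally distributed values. The genes share the same arrays and many were named by p or by likeness to Hsp90b1, so the rates cannot be compared. Of the 6, 3 were high values on hemophagocyte 3: Hspd1 at 8.52 (the other hemophagocytes 4.16 to 4.54), Pfn1 at 9.02 (5.52 to 5.77) and Ndufa4 at 9.84 (5.78 to 6.13). Pfn1 and Ndufa4 were named for their likeness to Hsp90b1, which is itself high on that array, so their place here is not independent of it. B2m was low on hemophagocyte 2, at 5.17, against 9.67 to 10.34 on the other hemophagocytes. The stress-related factor Creb3 was low on resting array 3, at 5.68 (5.83 to 5.86 on the others), and Mcfd2 was high on resting array 6, at 7.13 (6.75 to 6.80). None of the 10 chaperones met this rule in either group: for Hsp90b1 and Pdia3, hemophagocyte 5 lies between hemophagocyte 3 and the other hemophagocytes.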

How the results depend on the processing

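The count of chaperones past the threshold was 0 in all 19 alternative settings, of which the filter at the median level left out 4 (Canx, Pdia3, Pdia6 and P4hb), with adjusted p from 0.58 (Pdia4) upward. Their median change of 0.052 kept its sign except without hemophagocytes 3 and 5, where it was -0.083, and was 0.011 to 0.078 when single arrays were left out. Over all genes 2 passed; 1 did with median centring, cyclic loess, the intensity trend and robust prior, or the array background covariate, 5 without hemophagocyte 2 and resting macrophage 3, 7 with the replicate block, and 1 to 11 when single arrays were left out, with 11 without hemophagocyte 2. The block, whose contrast rests on replicates 3, 5 and 6, changed no chaperone call. Of 870 values of single genes, 840 kept direction and side of the threshold, 3 (B2m) passed, and 27 changed sign; the cause was not tested. With another scaling, Canx was 0.0187 (quantile), 0.0188 (median centring) and 0.030 (cyclic loess), and with the replicate block 0.0085. With single arrays left out, Canx ranged from -0.070 to 0.073, Calr from -0.10 to 0.077, Sdf2l1 from -0.050 to 0.13, Hspd1 from -0.023 to 1.43 and Ndufa4 from -0.14 to 1.22 (1.23 without hemophagocyte 2 and resting macrophage 3); among these, the lowest value of Hspd1 and Ndufa4 came without hemophagocyte 3. Leaving out 1 array moved the change of 32 of 47 named genes by over 1.5 times or turned its sign, hemophagocyte 3 doing so for 18. Without hemophagocytes 3 and 5 together, Hsp90b1 was -0.014, Hspa5 -0.018, Calr -0.15, Canx -0.15, Pdia3 -0.16, P4hb -0.011, S100a8 -0.063, Cox17 -0.022 and Ndufa4 -0.24. With the array background covariate, Hsp90b1 was 0.10, Pdia3 0.35, Hspa5 was -0.0019, Sdf2l1 -0.16, Srp14 -0.018, Hspd1 -0.52, Pfn1 -0.14 and Ndufa4 -0.65. The covariate was lowest on hemophagocyte 3, so that setting cannot separate background from whatever else differs on that array. Values within the range of the olfactory and vomeronasal receptor genes limit what any setting can show.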
